A study of Mus musculus with 2 samples.

Results

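Cycling fibroblasts were the stromal cells of B16F10 tumours in which several genes of mitosis were detected at the same time. B16F10 is a mouse melanoma cell line grown under the skin of its host. The cells were chosen by measured values. A cell was considered if it had between 200 and 5000 genes and no more than 7.5% of its UMIs from mitochondria (unique molecular identifiers, each of which marks 1 captured transcript). It had to hold at least 3 UMIs of the collagen gene Col1a2. It also had to hold a UMI of at least 2 of the 8 stromal genes Dcn, Lum, Pdgfra, Dpt, Mmp2, Serpinf1, Fstl1 and Pdgfrb, to have under 0.5% of its UMIs from the pigment genes Pmel, Dct, Mlana and Tyrp1, and to hold a UMI of at least 3 of the 10 mitotic genes Ube2c, Cenpe, Prc1, Cenpf, Tpx2, Kif11, Mki67, Cdca8, Racgap1 and Cdk1. This rule found 82 cells, 52 in the WT library and 30 in the KO library. They were among 425 fibroblasts that passed the stromal conditions (202 WT and 223 KO) and among 7418 cells kept in all. The other 343 fibroblasts, with fewer than 3 mitotic genes, are called non-cycling here.

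Single-cell RNA sequencing was done on small B16F10 tumours, with 1 library from Atf4wt/wt hosts (WT) and 1 from Atf4D/D hosts (KO), each a pool of 2 tumours. Hosts were 11 weeks old, and the labels describe each pool as mixed in sex. By the study's methods, hosts of both genotypes carried the Rosa26 CreERT2 allele and received tamoxifen, so the controls had Cre and the drug as well. The deletion was global in the host, while the injected melanoma cells kept their own Atf4. With 1 library per genotype no difference between genotypes has a replicate check, and the cells of a library are not replicates. Because the rule used the counts of these same cells, cycling against non-cycling differences are descriptions and carry no test. The intervals given are exact, at 95%, and cover counting error only.

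A fibroblast that divides first copies its DNA and then separates the copies in mitosis. Genes of DNA synthesis, such as the Mcm helicase subunits and the subunits of ribonucleotide reductase, are switched on by E2F factors at the entry into S phase. Genes of mitosis, such as Cdk1, its cyclins and the kinesin motors of the spindle, follow later, and many of their promoters hold a CCAAT box beside an element called the cell cycle homology region. Fibroblasts of tumours make most of the collagen matrix, and pericytes, which wrap small vessels, are close to them in expression. Atf4 is the transcription factor of the integrated stress response and controls genes of amino acid synthesis and transport.

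Promoters of genes of both phases are shown here because the cells were found by mitotic genes while the rule used no replication gene. RefSeq promoters on GRCm38.p6, from 250 bases before to 50 bases after the start, were given for 9 of the 10 mitotic genes of the rule. Tpx2 was not matched. Capitals mark the CCAAT box, the cell cycle homology region with the letters TTTGAA, and E2F matches. An E2F match was TTTCCCGC or TTTGGCGC, or else TTTGCCGC or TTTCGCGC. Each was searched on both strands, so that the box also reads as ATTGG and the homology region as TTCAAA. Each stretch runs 5′ to 3′ on the strand of its gene and ends upstream of the annotated starts. Cdk1 is at chr10:69352946-69353053 (minus strand), Kif11 at chr19:37376327-37376378 (plus strand), Mki67 at chr7:135716462-135716577 (minus strand), and the replication gene Mcm6 at chr1:128359706-128359825 (minus strand).
Cdk1: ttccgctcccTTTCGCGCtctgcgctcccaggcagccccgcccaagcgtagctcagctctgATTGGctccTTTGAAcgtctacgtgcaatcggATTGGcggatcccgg
Kif11: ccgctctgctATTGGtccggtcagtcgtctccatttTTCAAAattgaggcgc
Mki67: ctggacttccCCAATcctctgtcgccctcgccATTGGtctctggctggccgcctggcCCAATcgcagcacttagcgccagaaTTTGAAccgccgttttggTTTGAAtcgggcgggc
Mcm6: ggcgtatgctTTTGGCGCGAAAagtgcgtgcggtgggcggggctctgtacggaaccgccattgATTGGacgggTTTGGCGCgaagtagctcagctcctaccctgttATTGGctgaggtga

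A CCAAT box was present in all 9 promoters of the rule's mitotic genes, against 41.1% of 27025 genes with a promoter. TTTGAA was present in 8 of them (88.9%, against 20.2% of all genes), with Cenpe as the exception. An E2F match was present in Cdk1 alone, and 2.6% of all promoters had one. Of 50 further mitotic genes that the rule did not use, 40 had a promoter, of which 26 held TTTGAA and 30 held CCAAT. Of 40 DNA replication genes, 30 had a promoter, of which 3 held TTTGAA and 12 (40%) held an E2F match. In Mcm6 the E2F match TTTGGCGC overlaps a match of TTTCGCGC on the other strand, in the run TTTGGCGCGAAA. These are matches of letters and say nothing of binding in these cells.

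The number of mitotic genes per fibroblast had most of its mass at 0. Of the WT fibroblasts 117 had none of the 10, and of the KO fibroblasts 157. At the edge of the rule, 8 WT and 6 KO cells had exactly 3 of the genes and were taken, and 9 WT and 8 KO cells had exactly 2 and were not. All 10 genes were seen in 2 WT cells and 1 KO cell. Cycling fibroblasts had a median of 5927 UMIs in WT (2726 to 20520) and 6191 in KO (3015 to 18111), above the 3340.5 and 3580 of the non-cycling cells. A deeper cell shows more genes, so the share of cells past the rule is also given at 2000 UMIs per cell. The libraries shared 10 barcodes, none of them among the cycling fibroblasts.

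**Figure D1:**
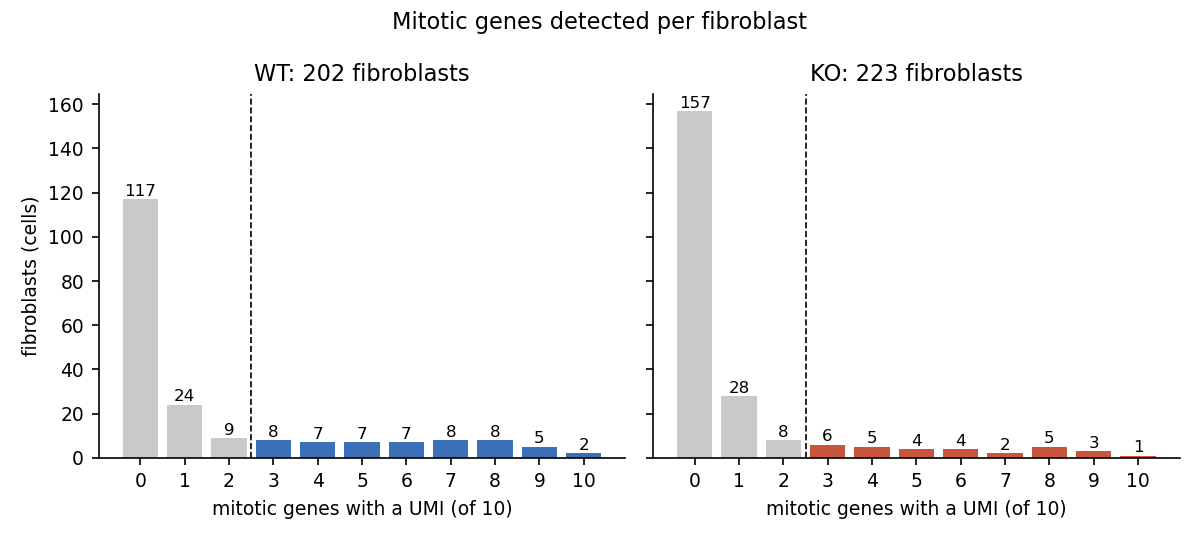
Number of the rule's 10 mitotic genes with a UMI in each fibroblast (x axis) against the number of cells (y axis), for the WT and KO libraries. Cells right of the dashed line, coloured, are the 52 WT and 30 KO cycling fibroblasts, and the grey bars at 0 hold 117 and 157 cells.

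The label was checked against markers. Collagen and stromal transcripts were present in every cycling cell, as the rule requires, and summed T and NK cell markers came to 3 WT UMIs and 1 KO UMI, epithelial markers to 4 and 1, and erythroid genes to 14 and 0. Some cells went against the label. In WT, 7 cycling cells held 9 to 11 of 12 endothelial markers (such as Pecam1, the junction protein of vessel lining cells, and the VEGF receptors Kdr and Flt1), and the same cells held 4 to 11 of 12 pericyte markers and 9816 to 20520 UMIs. They carried 619 of the 651 endothelial UMIs of the WT cycling class. A further 3 WT cells held 9 to 14 of 15 macrophage and leukocyte markers. In KO, 1 cell held 10 endothelial markers, 1 held 3 and 1 held 9 macrophage markers. Together these mixed cells were 10 of 52 WT cells with 35.3% of the class's UMIs and 3 of 30 KO cells with 12.3%, against 9 of 150 and 4 of 193 non-cycling cells. A droplet with a fibroblast and another cell and a single cell with both programmes cannot be told apart here. Scrublet called 1 WT and 1 KO cycling fibroblast doublets. Many results that these cells touch are given with them and without them. Melanoma markers outside the rule were not used to define mixed cells. They came to 206 CPM in WT and 444 CPM in KO cycling cells, against 377 and 315 CPM in non-cycling cells. The most such UMIs in 1 cell were 5 among WT and 23 among KO cycling cells. Values without the mixed cells can therefore still hold melanoma transcripts.

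The mitotic genes of the rule, as chosen, were far higher in cycling than in non-cycling fibroblasts. Ube2c, the ubiquitin-conjugating enzyme of the anaphase-promoting complex, was the most abundant, with 168 UMIs in 39 WT cells and 92 UMIs in 21 KO cells. That is 450 and 444 CPM (counts per 1000000 UMIs of the class), against 26.1 and 14.9 CPM in the non-cycling cells. Cdk1, the kinase that drives entry into mitosis, had 268 CPM in WT and 246 CPM in KO cycling cells. Mki67, which coats mitotic chromosomes and is used to count dividing cells, had 198 CPM in each library and was found in 39 of 52 WT and 20 of 30 KO cells. Cdca8, a subunit of the chromosomal passenger complex, had 53 WT and 29 KO UMIs in cycling cells and 0 in non-cycling cells of either library. Kif11, the motor that pushes spindle poles apart, was the least abundant, at 74.9 and 77.2 CPM. Between the genotypes, the sum of the 10 genes differed by a log2 KO/WT of -0.08 (-0.26 to 0.10), and by -0.34 (-0.54 to -0.15) without the mixed cells. The same sum was 1959 CPM in WT cycling fibroblasts, 1902 CPM in WT cycling melanoma cells and 2679 CPM in WT cycling macrophages.

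Mitotic genes that the rule did not use moved with those it did. A gene was counted as higher or lower where it differed at least 2-fold in the same direction in both libraries, among 4890 genes with at least 20 UMIs in each library. Over all these genes, 112 were higher in cycling fibroblasts (2.29%) and 68 were lower (1.39%). The median difference was 0.03 in WT and 0.05 in KO on the log2 scale. Of the 50 further mitotic genes 14 reached 20 UMIs, and 14 of 14 were higher, with a median log2 difference of 2.84 in WT and 2.76 in KO. A gene can reach this minimum through the class in which it is high. The 14 of 14 and its medians were therefore partly fixed in advance, and members below the minimum are not counted as unchanged. Summed over all 50 genes with no minimum, the list differed by 3.01 (2.83 to 3.20) in WT and 2.84 (2.66 to 3.03) in KO. Top2a, which untangles replicated DNA, had 110 UMIs in 38 WT cells and 54 in 20 KO cells, a log2 difference from the non-cycling cells of 4.49 (3.40 to 5.84) in WT and 3.89 (3.0 to 4.89) in KO. Ccnb1, the cyclin partner of Cdk1, was higher by 3.87 (2.66 to 5.37) and 3.25 (2.26 to 4.34). Cks2, a small subunit that binds Cdk1, was higher by 2.07 and 1.81, and Ccnb2 by 2.02 and 1.59, the smallest differences of the group. With the mixed cells left out, 13 of 13 such genes were higher, and over all genes the shares were 1.93% higher and 1.31% lower.

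DNA replication genes differed by less, with the sum of all 40 at 1.31 in WT and 1.44 in KO. The rule used no replication gene, so the non-cycling class can hold cells that copy DNA. Single non-cycling cells held up to 14 of these genes in WT and 17 in KO. The part of such cells in the smaller difference was not tested. Of 18 replication genes with enough UMIs, 10 were higher in both libraries and 0 lower, beside 2.29% and 1.39% of all genes. The medians of these 18 genes were 1.18 in WT and 1.34 in KO. As for the mitotic list, a gene could reach the minimum through the cycling class, so this count and its medians were partly fixed in advance. Members below the minimum are not counted as unchanged, and the sum of all 40 has no minimum. Tk1, the thymidine kinase, was higher by 2.76 and 2.99, and Rrm2, the regulated subunit of ribonucleotide reductase, by 2.42 (1.43 to 3.53) and 2.71 (1.63 to 3.86). Tyms, which makes thymidylate, was higher by 1.47 and 1.56. Mcm6, whose promoter is printed above, differed by 1.07 in each library, with intervals that included 0 (-0.03 to 2.21 and -0.22 to 2.28), so its direction was not settled at this depth. Pcna, the sliding clamp, had 17 and 10 UMIs in the cycling classes and differences of 0.52 and 1.25. Slbp, which binds histone mRNA, differed by 0.48 and 0.11. Summed over the list, replication genes came to 1951 CPM in the WT and 1916 CPM in the KO cycling fibroblasts, against 785.8 and 706 CPM in non-cycling cells and 4112 and 3546 CPM in cycling melanoma cells.

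Replication and mitotic transcripts were not at the same level in every cycling fibroblast. The replication list reached a median of 18.6 UMIs per 10000 in WT cells (2.37 to 71.7) and 18.9 in KO cells (1.19 to 50.5). The further mitotic genes reached 52.4 (5.01 to 99.4) and 36 (6.47 to 77.9). Set against the level that 10% of non-cycling fibroblasts of the same library exceed, 48 of 52 WT and 26 of 30 KO cycling cells were higher for the mitotic list. For the replication list 28 WT and 19 KO cells were higher, and 25 WT and 15 KO cells were higher for both. In 3 WT and 4 KO cells the replication list alone was above that level.

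**Figure D2:**
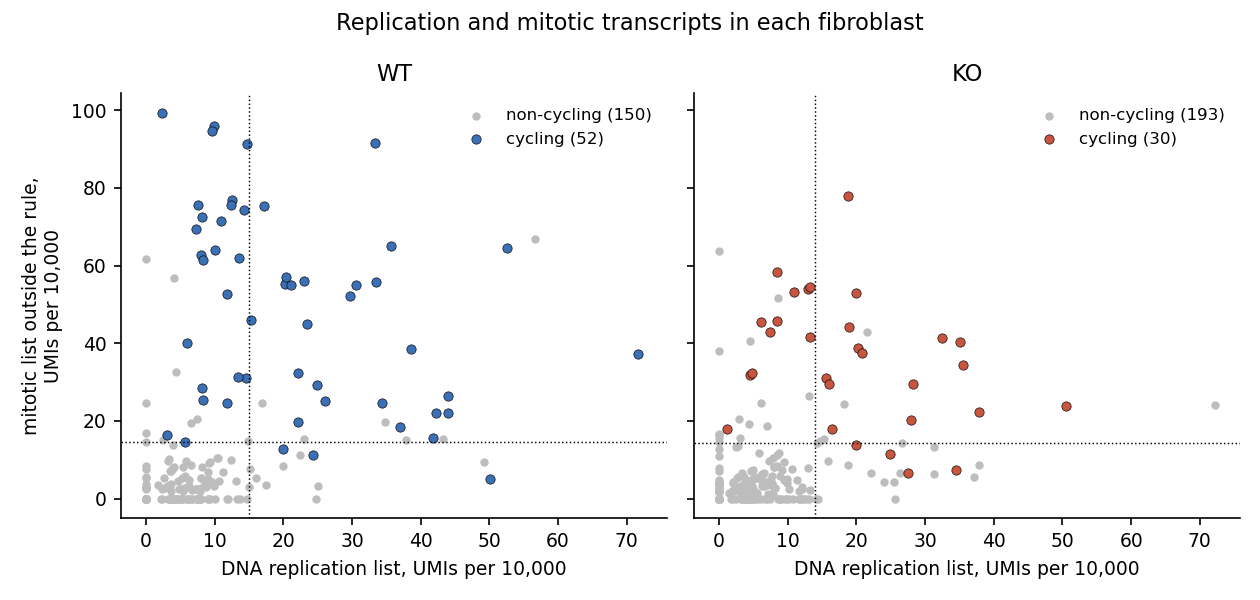
UMIs of the DNA replication list (x axis) and of the mitotic list outside the rule (y axis) per 10000 UMIs in each fibroblast, coloured for cycling and grey for non-cycling cells. Dotted lines mark the level that 10% of non-cycling cells exceed, and 25 WT and 15 KO cycling cells lie above both lines.

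Chromatin and tubulin genes that dividing cells need in bulk were next. Of 22 such genes with enough UMIs, 13 were higher in both libraries and 0 lower, beside 2.29% and 1.39% of all genes. Hmgb2, a chromatin protein of proliferating cells, was higher by 2.36 in WT and 3.07 in KO. Stmn1, which takes microtubules apart, was higher by 2.39 and 2.72. H2afx, the histone variant marked at DNA breaks, was higher by 3.33 and 2.25. The abundant tubulin Tubb5 was higher by 1.20 and 1.13, while Tuba1a differed by 0.58 and 0.26. Of the 112 higher genes, 37 belonged to the cell cycle lists, so 75 did not.

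Outside the cell cycle lists, the genes with the largest differences included several that are known from dividing cells. Pclaf, which binds Pcna at replication forks, was highest, with 105 UMIs in 39 WT cells and 51 in 23 KO cells, and differences of 3.33 (2.54 to 4.21) and 2.99 (2.25 to 3.76). Arl6ip1, a shaping protein of the endoplasmic reticulum, was higher by 2.15 and 1.62. Rad21, a subunit of the cohesin ring, was higher by 1.49 and 1.66, and Bub3, a spindle checkpoint protein, by 1.41 and 1.47. Ccdc34, the RNA-processing genes Lsm2 and Phf5a, the selenoprotein gene Selenoh and the tubulin gene Tubb6 were higher by between 1.10 and 1.61 in each library. Each of these genes stayed past 2-fold in both libraries without the mixed cells. Rgs5, a pericyte marker, was also among the genes with the largest differences, and it rested on few cells. It had 62 WT UMIs in 9 cells, of which 54 were in mixed cells, and 0 in non-cycling WT cells. In KO it had 22 UMIs in 2 cells, 18 of them in 1 cell. With the mixed cells left out, 8 WT and 18 KO UMIs remained, with differences of 2.41 and 2.99, but the WT total was under the minimum of 20 UMIs.

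Regulators of the cell cycle did not share a direction. None of the 5 cyclins, CDKs and E2F genes with enough UMIs passed the 2-fold rule in both libraries. Ccnd1, cyclin D1, was higher in WT cycling cells by 2.06 (1.38 to 2.80) and differed by 0.24 (-0.40 to 0.84) in KO, and 52 of its 70 WT UMIs were in mixed cells. Ccnd2, cyclin D2, differed by -1.46 (-2.02 to -0.93) in WT and -0.67 (-1.11 to -0.26) in KO. Of 12 CDK inhibitors and growth arrest genes, 1 was lower in both libraries and 0 higher, beside 1.39% and 2.29% of all genes. The lower gene was Cdkn1c, which encodes the CDK inhibitor p57. It had 2 UMIs in each cycling class against 19 WT and 31 KO UMIs in non-cycling cells. Cdkn1a, which encodes p21, differed by -0.85 (-1.55 to -0.20) in WT and 0.13 (-0.25 to 0.50) in KO.

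Collagen transcripts took a smaller share of the cycling cells' UMIs, by less than 2-fold. Of 5 fibrillar collagen genes 0 passed the 2-fold rule, with medians of -0.56 in WT and -0.64 in KO. Col1a1, the main chain of type I collagen, had a median of 47 UMIs per WT cycling cell (3 to 242) and 34 per KO cycling cell (5 to 115). Non-cycling cells, which had fewer UMIs in all, had lower Col1a1 medians of 37.5 in WT and 29 in KO. The cycling cells thus held a smaller share of Col1a1 but not fewer Col1a1 UMIs per cell. In CPM, the log2 differences of Col1a1 from non-cycling cells were -0.56 (-0.63 to -0.50) in WT and -0.67 (-0.76 to -0.58) in KO. The list's sum fell by 0.60 in WT and by 0.80 in KO on the log2 scale. Without the mixed cells the differences were -0.26 and -0.77. The stromal genes of the rule were also lower in CPM. The same minimum of them was required of both classes, and the non-cycling cells were shallower. A fixed minimum asks for a larger share in a shallower cell, so this difference was partly open to the rule itself. How much of it came from the rule was not tested. The sum of these stromal genes differed by -0.93 in WT and -0.95 in KO, and by -0.57 and -0.94 without the mixed cells. With the mixed cells included, Dcn, decorin, which binds collagen fibrils, differed by -1.24 in WT and -1.35 in KO. On the same basis Mmp2, a matrix protease, differed by -1.45 and -1.60. Pdgfrb, a growth factor receptor of fibroblasts and pericytes, differed by 0.33 (-0.02 to 0.67) and -0.25 (-1.01 to 0.45). Of 27 other matrix genes 2 were lower in both libraries, beside 1.39% of all genes. The lower genes were Eln, elastin, and Ogn, a small matrix proteoglycan. Neither passed without the mixed cells, where Eln differed by -1.95 and -0.92 and Ogn by -1.22 and -0.85.

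Of 19 cytokines, chemokines and related genes 4 were lower in cycling fibroblasts in both libraries and 0 higher, beside 1.39% and 2.29% of all genes. The summed list differed by -0.62 in WT and -0.40 in KO, and by -0.25 and -0.33 without the mixed cells. Saa3, an acute phase protein, had 22 UMIs in 5 of 52 WT cells and 39 UMIs in 5 of 30 KO cells, which is 58.9 and 188 CPM against 567 and 1303 CPM in non-cycling cells. Its differences were -3.27 (-3.96 to -2.64) and -2.79 (-3.29 to -2.33). The cytokine gene Il33 differed by -1.53 in WT and -1.34 in KO, and the complement gene C3 by -2.23 and -1.15. Cxcl13, a chemokine that attracts B cells, had 1 WT and 3 KO UMIs in cycling cells against 43 and 353 in non-cycling cells. Lbp, which binds bacterial lipopolysaccharide, Ptx3, a soluble pattern receptor, Fgl2, Ifi205, Slfn5, Dpep1 and the lipid droplet gene Hilpda were the other genes with the largest negative differences, between -3.37 and -1.50. For each of them the difference stayed past 2-fold in both libraries without the mixed cells.

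Markers of adventitial fibroblasts, which lie around larger vessels, included 2 of 10 that were lower and 0 that were higher. Over all genes 1.39% were lower and 2.29% higher. Pi16 had 6 UMIs in 4 WT cells and 0 UMIs in the 30 KO cells, against 56 and 55 UMIs in non-cycling cells. In KO, where 0 UMIs were replaced by a floor of 3, it was lower by at least 2.36 on the log2 scale, and the counting interval reached up to -2.01. Clec3b had 16 WT UMIs in 7 cells and 1 KO UMI, and differed by -1.92 (-2.79 to -1.14) in WT and -4.41 (-9.73 to -1.89) in KO. The other 8 adventitial markers did not pass in both libraries. Of 24 hypoxia and glycolysis genes 2 were lower, beside 1.39% of all genes. The lower genes were the glucose transporter Slc2a1 (-1.07 and -1.22) and the oxidase Ero1l (-2.18 and -1.15). Without the mixed cells the number was 5 of 22, beside 1.31% of all genes.

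None of 13 contractile genes passed the 2-fold rule. Acta2, smooth muscle actin, had 360 UMIs in 38 WT cells and 124 UMIs in 14 KO cells, and differed by 0.55 (0.34 to 0.77) and 0.58 (0.26 to 0.88). Summed contractile genes differed by 0.23 and 0.30, heat shock genes by 0.17 and 0.29, translation and ribosome biogenesis genes by 0.14 and 0.30 and oxidative phosphorylation genes by 0.15 and 0.23. Pericyte markers differed by 1.21 (0.98 to 1.45) in WT and -0.25 (-0.52 to 0.01) in KO. In the other cells they differed by 0.45 in WT and -0.27 in KO.

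**Figure D3:**
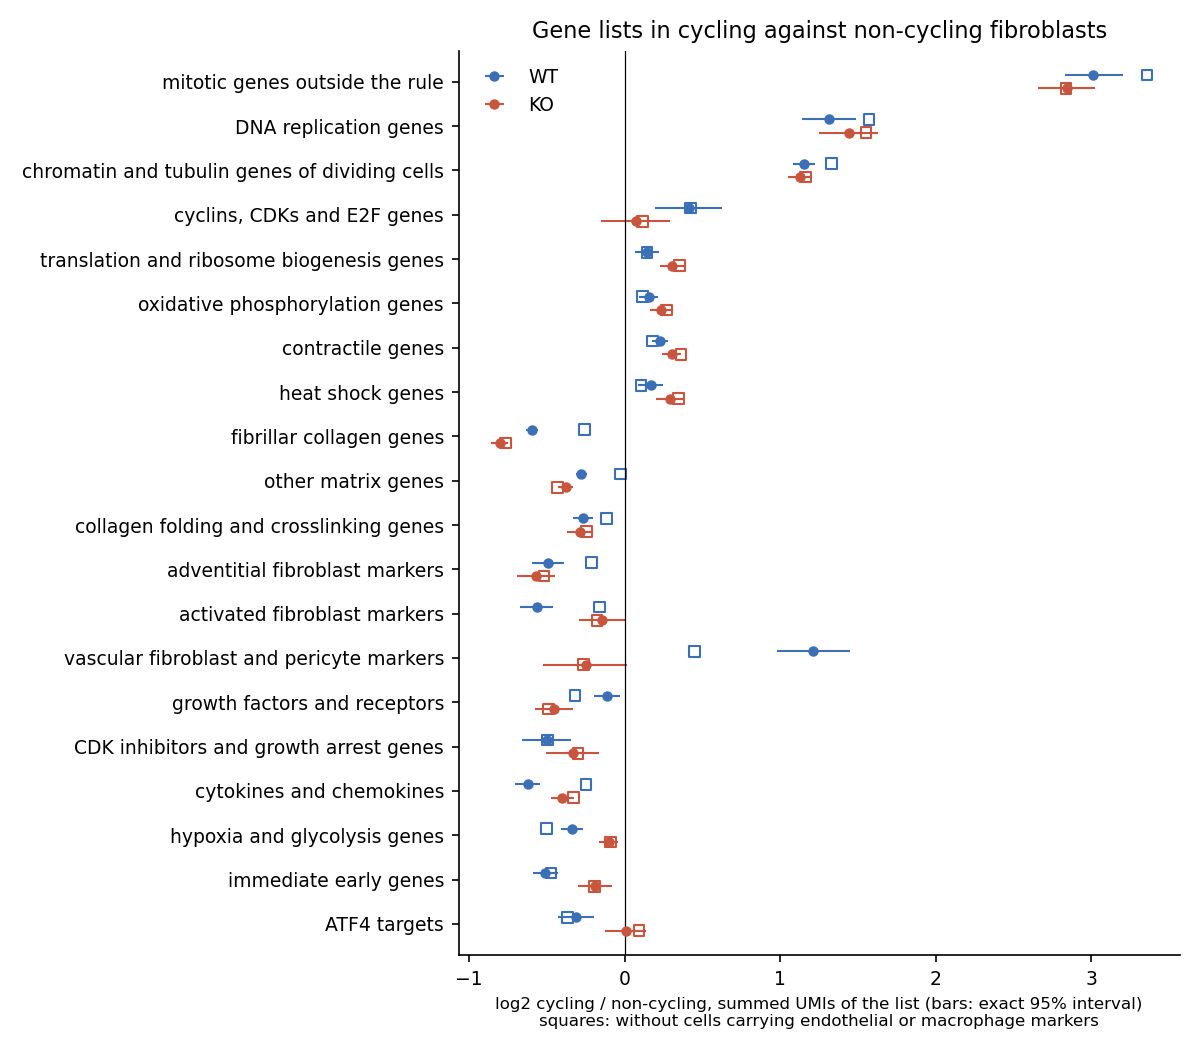
Log2 ratio of the summed UMIs of each gene list in cycling over non-cycling fibroblasts (x axis), with exact 95% intervals, for WT (blue) and KO (red). Open squares leave out the cells with endothelial or macrophage markers, and the mitotic list lies furthest right, at 3.01 in WT and 2.84 in KO.

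The design asks whether the host's genotype went with the number of cycling fibroblasts. They were 25.7% of WT fibroblasts (19.9 to 32.3) and 13.5% of KO fibroblasts (9.26 to 18.6), a log2 KO/WT of -0.94 (-1.64 to -0.26). At 2000 UMIs per cell the shares were 19.3% (34 of 176) and 7.81% (15 of 192), with a log2 KO/WT of -1.31 (-2.29 to -0.39). With the mixed cells left out they were 23.0% and 12.5%. Against the label of a pool of both sexes, 0 of 202 WT fibroblasts held a UMI of a Y-linked gene, and 166 held Xist, which the inactive X chromosome expresses. In KO, 56 fibroblasts had Xist and no Y-linked UMI and 53 the reverse. Among cells with Xist and no Y-linked UMI, 46 of 166 WT (27.7%) and 5 of 56 KO (8.93%) were cycling, and among KO cells with Y-linked UMIs and no Xist 10 of 53 were (18.9%). The genotype, the sex of the hosts and the pool of tumours cannot be told apart in this design.

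Cycling shares in other cells of the same tumours are set beside these. At 2000 UMIs, 11.3% of WT and 9.48% of KO macrophages and leukocytes had 3 or more mitotic genes, a log2 KO/WT of -0.26 (-0.86 to 0.33). Endothelial cells were few, with 14 of 48 WT and 3 of 18 KO cells cycling. Melanoma cells, taken as cells with at least 2% pigment UMIs, were also few, with 6 of 36 and 3 of 24 cycling. With a limit of 0.5%, chosen after seeing the data, they were at 34.5% and 26.7%, a log2 KO/WT of -0.37 (-0.55 to -0.19). The difference between these ratios and that of the fibroblasts was not tested. Within the fibroblasts, markers of subtypes were read at 2000 UMIs and cycling was called at full depth, so these shares are not on the scale of those above. Cells with adventitial markers were cycling in 38 of 139 WT and 22 of 158 KO cells, and cells with activation markers (such as Postn) in 41 of 141 and 27 of 134. Of fibroblasts without activation markers 11 of 35 WT and 3 of 58 KO cells were cycling. Without adventitial markers 14 of 37 WT and 8 of 34 KO cells were, and without pericyte markers 41 of 156 and 26 of 168. For cells with pericyte markers the numbers were 11 of 20 and 4 of 24. Mixed cells with pericyte markers were present in both libraries, and leaving out the mixed cells gave 38.5% in WT and 14.3% in KO. With every count of the rule taken at 2000 UMIs, cells with pericyte markers were at 28.6% and 0%, adventitial cells at 19.7% and 6.67% and activated cells at 18.6% and 8.73%.

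**Figure D4:**
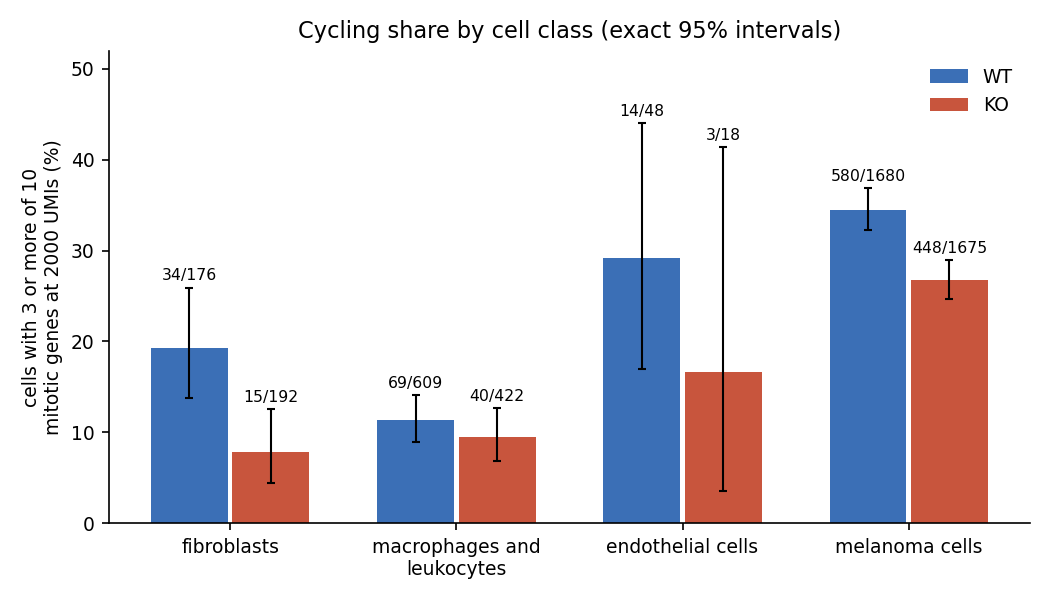
Share of cells with at least 3 of the 10 mitotic genes after thinning to 2000 UMIs (y axis, percent) in 4 cell classes, for WT (blue) and KO (red), with exact 95% intervals and cell numbers (melanoma cells by the limit of 0.5% pigment UMIs). The fibroblast bars stand at 19.3% and 7.81%.

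Atf4 itself (chr15:80255184-80257541, plus strand, protein coding) was lower in the cycling fibroblasts of the KO library. The deletion removes the second and the third exon by the study's methods, and the kit reads the 3′ ends of transcripts. Cycling fibroblasts had 88 Atf4 UMIs in 36 of 52 WT cells and 14 UMIs in 10 of 30 KO cells, or 236 and 67.6 CPM. The log2 KO/WT was -1.80 (-2.73 to -0.98) and -1.89 without the mixed cells, beside -2.70 (-3.32 to -2.12) in non-cycling fibroblasts. Melanoma transcripts were not equal in the libraries. The pigment genes of the rule, which are capped in each cell, came to 377 CPM in the WT and 936 CPM in the KO cycling fibroblasts, a log2 KO/WT of 1.31 (0.99 to 1.63), while in non-cycling cells it was -0.02. Their part in the KO values was not tested.

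Over all genes, 231 of 4237 were at least 2-fold higher in KO than WT cycling fibroblasts (5.45%) and 391 were lower (9.23%). In non-cycling fibroblasts the shares were 5.51% and 5.16% of 6411 genes. Leaving out the mixed cells gave 5.71% and 9.11% of 3207 genes in cycling cells. The median log2 KO/WT was -0.02 in cycling and -0.01 in non-cycling cells.

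Several genes of inflammatory signalling were far higher in the KO cycling cells, as they also were in the non-cycling cells. Cxcl5, a chemokine that attracts neutrophils, had 10 UMIs in 3 of 52 WT cells and 129 UMIs in 17 of 30 KO cells, a log2 KO/WT of 4.54 (3.61 to 5.63), beside 3.72 in non-cycling cells. Serpinb2, a protease inhibitor, had 20 UMIs in 3 WT cells and 218 in 15 KO cells, 4.30 (3.63 to 5.04) beside 3.04. Il1rl1, the receptor of Il33, had 15 UMIs in 10 WT cells and 122 in 21 KO cells, 3.87 (3.1 to 4.76) beside 2.19. Il33 itself had 26 UMIs in 10 WT cells and 81 in 20 KO cells, 2.49 (1.84 to 3.19) beside 2.29, so both the ligand and its receptor were higher. Rarres2, which encodes chemerin, was higher by 2.25 and 2.15. Without the mixed cells these 5 differences ranged from 1.67 for Rarres2 to 4.10 for Cxcl5. Over 18 cytokines and related genes 8 were higher in KO cycling cells and 0 lower, beside the 5.45% of all genes that were higher. After leaving out the mixed cells 5 of 17 were higher and 1 lower.

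Of 12 CDK inhibitors and growth arrest genes 2 were higher and 2 lower in KO cycling cells, beside 5.45% and 9.23% of all genes. The median log2 KO/WT of the list was -0.04. Cdkn1a had 27 UMIs in 15 WT cells and 80 UMIs in 20 KO cells, and its log2 KO/WT was 2.42 (1.77 to 3.1) in cycling and 1.43 in non-cycling cells. Ccng1, cyclin G1, had 12 UMIs in 9 WT cells and 34 in 17 KO cells, at 2.35 (1.37 to 3.44) and 1.67. Leaving out the mixed cells gave 2.56 and 2.27 in cycling cells. The lower genes were Txnip, which inhibits thioredoxin, with 26 WT and 3 KO UMIs and -2.27 (-4.63 to -0.56), and the CDK inhibitor gene Cdkn2c, with 24 and 5 UMIs and -1.41 (-3.16 to 0.01). Of 5 cyclins, CDKs and related genes Ccnd2 was higher, at 1.45 (0.82 to 2.09) in cycling and 0.66 in non-cycling cells, and Myc was lower, at -1.15 (-2.73 to 0.18).

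Of 23 hypoxia and glycolysis genes 9 were at least 2-fold higher in KO cycling cells and 0 lower, beside 5.45% and 9.23% of all genes, against 6 of 26 higher in non-cycling cells, and without the mixed cells the number was 13 of 19. Bnip3, a mitophagy receptor, had 13 WT and 28 KO UMIs and a log2 KO/WT of 1.96. Ero1l was at 1.92, the glycolytic enzyme Tpi1 at 1.38, Pgk1 at 1.10 and Ldha, lactate dehydrogenase, at 1.07. The summed list differed by 0.94 (0.86 to 1.02) in cycling and 0.71 (0.66 to 0.76) in non-cycling cells. It came to 19042 CPM in WT cycling melanoma cells against 6739 CPM in WT cycling fibroblasts.

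Of 27 matrix genes other than fibrillar collagens 13 were lower in KO cycling cells and 0 higher, beside 9.23% and 5.45% of all genes. Leaving out the mixed cells gave 16 of 27, and in non-cycling cells 9 were lower and 1 higher. Col6a1 and Col6a3, chains of type VI collagen, were at -1.33 and -1.46, Postn, periostin, at -1.09 and the basement membrane collagen Col4a1 at -1.56. Mgp, which keeps matrix from calcifying, had 790 UMIs in 42 WT cells and 80 UMIs in 5 KO cells, a log2 KO/WT of -2.45 (-2.80 to -2.12) beside -1.27 in non-cycling cells, and 49 of the KO UMIs were in 1 cell. None of the 5 fibrillar collagen genes passed 2-fold, and their sum differed by -0.55 (-0.61 to -0.49), or -0.91 without the mixed cells, beside -0.34 in non-cycling cells. Pdgfrb, a gene of the rule, had 133 UMIs in 43 WT cells and 21 UMIs in 15 KO cells, and its log2 KO/WT was -1.81 (-2.55 to -1.14) in cycling and -1.24 in non-cycling cells. Of 16 immediate early genes 4 were lower, beside 9.23% of all genes, with Fos at -1.23 and Egr3 at -2.20. In non-cycling cells 6 of 17 were lower. The summed list differed by -0.33 in cycling and by more, -0.64, in non-cycling cells.

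Itga1, a collagen-binding integrin, was lower in KO cycling cells. It had 69 UMIs in 18 WT cells and 3 UMIs in 2 KO cells, with a log2 KO/WT of -3.67 (-5.99 to -2.07) in cycling and 0.42 in non-cycling cells. The chemokine Cxcl9 had 52 UMIs in 13 WT cells, of which 24 were in 1 cell, and 5 UMIs in 2 KO cells. Mcam, a pericyte and endothelial adhesion protein, had 83 UMIs in 18 WT cells, 60 of them in mixed cells, and 5 UMIs in 3 KO cells. Each of these 3 genes kept its direction without the mixed cells.

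For several other genes with large differences most UMIs came from mixed cells. All 87 WT UMIs of Pecam1 and all 55 of Kdr were in mixed cells, as were 124 of 142 for Flt1, 171 of 176 for the imprinted gene Mest, 68 of 71 for Cd74 and 61 of 62 for Trp53i11. Flt1 kept its direction in the other cells, with 18 WT UMIs and 1 KO UMI and a log2 KO/WT of -3.76 (-9.14 to -1.09). Endothelial markers were lower in KO in 8 of 8 genes with the mixed cells, beside 9.23% of all genes. Without the mixed cells 0 genes of that list had enough UMIs. In the other direction, 181 of the 183 KO UMIs of the macrophage gene Wfdc17 and 46 of 49 for Ccl6 came from 1 mixed cell. Car6 had 54 KO UMIs, 30 of them in 1 cell, and a log2 KO/WT of 3.15, or -0.04 with a pigment limit of 0.1%. In cycling melanoma cells Car6 came to 660 CPM in WT and 1029 CPM in KO. Gpnmb, which melanoma cells and macrophages also express, had 51 UMIs in 17 KO cells against 20 in 17 WT cells. Its log2 KO/WT was 2.20, and 2.0 (1.16 to 2.91) without the mixed cells.

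Known targets of ATF4 were compared between the libraries as a list. Of 25 with enough UMIs 2 were higher and 1 lower in KO, beside 5.45% and 9.23% of all genes, with a median log2 KO/WT of 0.23, beside 2 higher and 7 lower of 34 and a median of -0.36 in non-cycling cells. The genes that were higher were Asns, asparagine synthetase, with 10 WT and 15 KO UMIs (1.44), and Phgdh, the first enzyme of serine synthesis, with 8 WT and 16 KO UMIs and 1.85 (0.54 to 3.28). In non-cycling cells the values were -0.26 for Asns and -0.90 for Phgdh. The summed list differed by 0.13 (-0.02 to 0.28) in cycling and -0.19 (-0.28 to -0.09) in non-cycling cells. For comparison, the same list came to 2948 CPM in the WT and 3737 CPM in the KO cycling melanoma cells, and its part in the KO fibroblast values was not tested.

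Mitotic and replication genes were compared in the same way. Of 40 further mitotic genes 4 were lower in KO and 0 higher, beside 9.23% and 5.45% of all genes, with a median of -0.37, and without the mixed cells 9 of 32 were lower with a median of -0.68. Replication genes had a median of -0.05, with 2 of 21 higher and 0 lower. Lig1, the DNA ligase of replication, was among the higher genes, with 14 UMIs in WT and 20 in KO, at 1.36 (0.31 to 2.46), and at 0.88 without the mixed cells, where 0 of 18 replication genes were higher and 1 was lower.

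**Figure D5:**
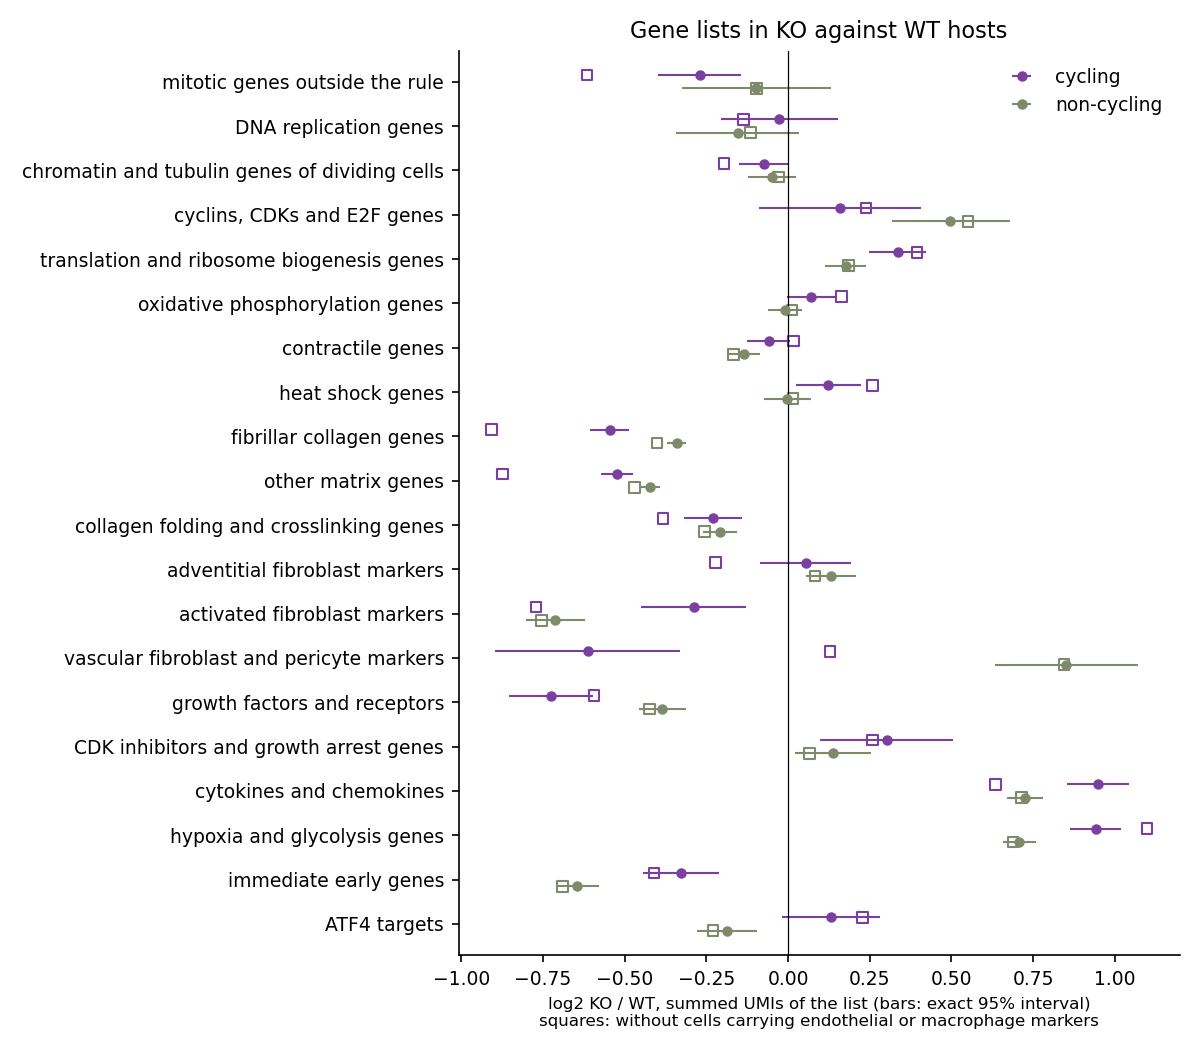
Log2 KO/WT of the summed UMIs of each gene list (x axis) in cycling (purple) and non-cycling (green) fibroblasts, with exact 95% intervals. Open squares leave out the cells with endothelial or macrophage markers, and hypoxia and glycolysis genes lie at 0.94 in cycling and 0.71 in non-cycling cells.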

How the data were processed

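The deposited files held raw UMI counts per gene and barcode, which the authors made with Cell Ranger 3.1.0 on GRCm38, with Seurat 3.2.1 also named in the submitters' processing notes. The labels give kit chemistry V3 and the methods V2. The 2 libraries held 38417113 and 38290024 UMIs. Cells were kept and chosen as the report states. Counts were summed over the cells of a class and given as CPM. Log2 ratios of sums carry exact conditional binomial intervals, levels exact Poisson intervals and shares Clopper-Pearson intervals, all at 95%. A sum of 0 was replaced by 3 UMIs in the ratios printed for genes and list sums. For the 2-fold calls, list medians and rankings, every sum under 3 UMIs was raised to 3. With 1 library per genotype no p-value was computed, and the spread between mice is unknown. The members and the gene lists were chosen with earlier results of these data known.

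Genes were compared where the classes together held at least 20 UMIs, and called past 2-fold. A gene could reach this minimum through the class or library where it was high. Counts of list members past 2-fold can therefore be partly fixed in advance. Named genes were those of the rule, list members with most UMIs or past 2-fold, the 10 genes with the largest ratios in each direction (at least 50 UMIs), Atf4, Xist and Y-linked genes. Ccng1, Ccnd2 and Lig1 were singled out after their values were seen. Leprel1, Ccn1 and Ccn2 matched no symbol. Aldoa and Atp5o stood on 2 lines of the files, and the line with more UMIs was used. Cells with at least 3 endothelial or 4 macrophage markers are called mixed. Barcode doublets were called with Scrublet in scanpy 1.11.5 and were left in. Python 3.11.15, NumPy 2.4.6, SciPy 1.17.1, pandas 2.3.3, matplotlib 3.10.9 and R 4.3.3 were used, with edgeR 4.0.16 for TMM factors alone. The ratios were tested on simulated data. Alternatives covered the cell rule, depth, scaling, UMI minimum and mixed cells.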

Additional observations from a re-analysis of the deposited data

Results flagged for a closer look

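Some differences between cycling and non-cycling fibroblasts pointed in opposite directions in the WT and KO libraries. Whether the directions differ between the genotypes was not tested, since each genotype had 1 library. For the pigment genes of the rule the log2 difference was -0.50 in WT and 0.83 in KO, a gap of 1.33, and without the mixed cells -0.26 and 0.92. For melanoma markers outside the rule it was -0.87 and 0.50, a gap of 1.37, and without the mixed cells -0.63 and 0.55. Few cells weighed on the KO value. Of its 92 UMIs in cycling cells, 1 cell held 23 and another held 16, and 85 remained without the mixed cells. The difference without these high cells was not computed. Wfdc17 differed by -0.93 in WT and 4.45 in KO, a gap of 5.38, and by 0.99 and -1.65 without the mixed cells, where its direction turned in both libraries. Itga1 differed by 1.54 in WT and -2.55 in KO, a gap of -4.1, and by 1.79 and -3.79 without the mixed cells. In all, 13 genes passed 2-fold in opposite directions.

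Cells with the stromal and mitotic genes but with at least 0.5% of UMIs from pigment genes were left out of the class. There were 12 in WT and 9 in KO.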

How the results depend on the processing

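Of 837 alternative values over 63 results, 824 kept their direction. Leaving out mixed cells and the pigment limit of 0.5% for melanoma cells were chosen after seeing the data. The cause of the changes below was not tested. List values here are means of both libraries (2.93 for mitotic, 1.38 for replication and -0.70 for fibrillar collagen genes as reported).

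With at least 5 mitotic genes the cycling shares were 18.3% in WT and 8.52% in KO, those of adventitial cells 18.7% and 8.23% and those of activated cells 21.3% and 13.4%, and the lists were at 2.71, 1.01 and -0.65. With every count thinned to 2000 UMIs, the shares were 18.8% and 6.82%, those of vascular cells 28.6% and 0%, of adventitial cells 19.7% and 6.67% and of activated cells 18.6% and 8.73%. Thinning left 38 genes higher and 7 lower in cycling cells and 55 higher and 89 lower in KO, with replication at 1.12 and collagen at -0.41. Cells with Xist and no Y-linked UMI gave a KO share of 8.93%, 15 genes higher and 23 lower in cycling cells, 103 lower in KO, mitotic genes at 3.27, collagen at -0.57 and Atf4 at -4.42 in non-cycling cells. Non-cycling cells with 0 mitotic genes gave 3.31, 1.57 and -0.78. Deep non-cycling cells (11 WT, 23 KO) gave 55 genes higher and 16 lower, replication at 1.07 and collagen at -0.34. TMM gave 110 genes lower and lists at 2.77, 1.22 and -0.85. With cells weighted equally replication was at 1.54 and collagen at -0.60, and with a pigment limit of 0.1% collagen was at -0.67. At least 50 UMIs left 35 higher and 33 lower in cycling cells and 63 and 111 in KO, and at least 1 UMI gave 617 higher in cycling cells and 859 higher and 665 lower in KO. Without mixed cells the lists were at 3.1, 1.56 and -0.51. Without thinning macrophages were at 7.21% in WT and 5.34% in KO. At 2000 UMIs melanoma cells with the 0.5% limit were at 34.5% in WT.

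Directions turned for Wfdc17 and Ccl6 in KO against WT: -1.14 and -0.55 without Scrublet calls, -3.37 and -0.78 with at least 5 mitotic genes, and -0.91 and -0.32 without mixed cells. Car6 was at -0.04 with the pigment limit of 0.1%. Between cycling and non-cycling cells, activated markers were at 0.22 and translation genes at 0 after thinning, and against deep non-cycling cells the cyclins were at -0.02, pericyte markers at -0.03, macrophage markers at -0.14 and endothelial markers at -0.12. No paired analysis was possible because there was only 1 WT and 1 KO library. For the same reason no replicate could be left out. Depth limits single genes, since most were seen with few UMIs in these 82 cells.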
